A study of Rattus norvegicus with 6 samples.

Results

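The 54 genes described here encode proteins that mark, license and fire replication origins and that copy DNA at the fork. They were picked by symbol, through a rule that uses no measured value but was made with earlier results of these data known, from the 31011 genes that 6 rat RNA sequencing libraries list with a usable name, and all 54 were found. The libraries came from cells labelled NRVM, a name the labels do not spell out, which were derived from embryonic rat myocardium and grown with fetal bovine serum. Dexamethasone, isobutylmethylxanthine and insulin are also mentioned in the protocols, without saying which samples received them. A control siRNA was used for 3 samples and an siRNA against eIF3m for the other 3; the labels state no genotype, strain, siRNA dose or time after transfection, and do not say that the 3 samples of a group were grown separately. The spread behind each p-value is thus that of these samples and may be technical. eIF3m is a subunit of translation initiation factor 3, which recruits the small ribosomal subunit to messages, and the comparison asks which transcripts differ when it is depleted.

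DNA replication starts at origins that the origin recognition complex (ORC) marks. In G1, Cdc6 and Cdt1 help ORC to load the MCM helicase, a ring of Mcm2 to Mcm7, and geminin (Gmnn) blocks Cdt1 once S phase has begun. The Cdc7-Dbf4 kinase then helps Cdc45 and the GINS complex to join MCM, primase and polymerase alpha begin each strand, and polymerases epsilon and delta extend the leading and lagging strands while the clamp Pcna holds them on DNA. Many of these genes are transcribed in a cell cycle-dependent way by E2F factors, and adult heart muscle cells largely stop expressing them when they leave the cell cycle.

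Total counts ran from 2156186 in eIF3m replicate 2 to 10061575 in eIF3m replicate 1, and from 7437285 to 8603602 in the controls. Levels below are in CPM, a gene's count scaled by the TMM-adjusted total count of the genes tested, and a change is the log2 fold change of eIF3m siRNA over control siRNA with its standard error (SE). A gene is said to have risen or fallen where edgeR's quasi-likelihood test gave a Benjamini-Hochberg adjusted p under 0.05 over 12724 genes. Eif3m stood at 138, 136 and 141 CPM in the controls and at 92.0, 84.1 and 87.6 CPM in the eIF3m libraries (-0.64 ± 0.05, adjusted p = 1.41e-07). The labelled cell type was checked against 15 cardiomyocyte markers. Of these, 11 were too low to be tested, among them the cardiac myosins Myh6 and Myh7, at no more than 1.05 and 0.191 CPM in any library, and Myl3 had no count. The 4 that were tested (Tnnt2, Casq2, Ttn and Pln) fell, where 21.2% of all genes tested fell. The summed level of all 15 was 848 to 870 CPM in controls and 341 to 366 CPM after eIF3m siRNA. Most of that sum came from 2 genes. Tnnt2 stood at 360 to 377 CPM in controls and 143 to 159 CPM in eIF3m libraries, and Casq2 at 428 to 446 and 184 to 192 CPM. One library stood apart: the summed level of 11 erythroid genes was 6281 CPM in eIF3m replicate 1, against 236 and 53.0 CPM in eIF3m replicates 2 and 3 and 34.0 to 80.0 CPM in controls. Endothelial markers (11 genes) summed to 240 CPM there against 65.1 to 111 CPM in the other libraries, and leukocyte markers (12 genes) to 69.4 against 25.5 to 32.9 CPM. In the other libraries most of the endothelial sum was Flt1 and most of the leukocyte sum was Cd14, and both genes fell. Flt1 stood at 95.0 to 98.3 CPM in controls and 50.5 to 51.5 CPM in eIF3m libraries. Cd14 stood at 25.3 to 29.1 and 18.2 to 20.2 CPM.

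Of the 31 replication genes that rose, 6 hold in the 250 bases before their annotated start a match to the letters TTTGGCGC, TTTCCCGC, TTTCGCGC or TTTGCCGC, which spell the consensus bound by E2F factors. Their windows are shown because E2F sites are a textbook feature of replication genes. A part of E2F in the rise was not tested. A match was also found in 6 genes that did not pass, which are named below without windows. All are RefSeq sequence of build GRCr8, printed 5′ to 3′ on the strand of the gene, with the match or joined overlapping matches in capitals and up to 30 bases on either side. The windows are chr4:122918095-122918138 (minus strand) for Mcm2, chr19:13488570-13488641 and chr19:13488775-13488812 (plus) for Mcm5, chr13:42404450-42404521 (minus) for Mcm6, chr12:22163374-22163428 and chr12:22163193-22163260 (minus) for Mcm7, chr3:160184865-160184919 (plus) for Gins1 and chrX:62342490-62342557 (minus) for Pola1.
Mcm2: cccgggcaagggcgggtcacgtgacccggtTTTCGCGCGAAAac
Mcm5, upstream match: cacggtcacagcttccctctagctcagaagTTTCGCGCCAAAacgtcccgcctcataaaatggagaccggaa
Mcm5, match next to the start: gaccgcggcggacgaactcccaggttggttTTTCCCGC
Mcm6: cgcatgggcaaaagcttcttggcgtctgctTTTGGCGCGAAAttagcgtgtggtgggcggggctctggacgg
Mcm7, upstream match: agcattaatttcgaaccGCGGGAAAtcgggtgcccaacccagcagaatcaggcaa
Mcm7, match nearer the start: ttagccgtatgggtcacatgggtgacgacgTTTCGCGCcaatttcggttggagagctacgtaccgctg
Gins1: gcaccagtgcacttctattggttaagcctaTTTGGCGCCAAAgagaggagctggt
Pola1: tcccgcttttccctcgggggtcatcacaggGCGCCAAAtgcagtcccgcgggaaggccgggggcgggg

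In Mcm2, Mcm5, Mcm6 and Gins1 the capitals run to 12 bases because a match on one strand overlaps a match on the other. The RefSeq table held a promoter for 48 of the 54 genes (none for Cdc6, Gins4, Mcm4, Orc1, Orc4 and Rpa3). On either strand, 12 of the 48 held an E2F match (25%), against 3.16% of 10523 promoters of the genes tested and 1.73% of all 33469 promoters of the same length. These backgrounds count promoters, of 9150 and 27457 genes, so some genes enter with several, while the 48 promoters are of 48 genes. An E2F match was in 6 of the 26 risen genes with a promoter (23.1%) and in 6 of the 20 that did not pass (30%), namely Gins3, Mcm8, Orc3, Orc5, Pole4 and Tipin. The letters CCAAT, read by the factor NF-Y, were in 24 of 48 (50%) against 35.2% of the promoters of tested genes, with 16 of 26 among the risen genes (61.5%) and 7 of 20 among those that did not pass (35%). One E2F match, that of Mcm7 nearer the start, shares 1 base with a CCAAT match. A match is a description of the letters, and binding was not measured.

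After eIF3m siRNA 31 of the 54 genes rose, 2 fell and 21 did not pass the test. The risen share was 57.4%, against 17.4% of all genes tested that rose. The 2 that fell were Fen1 and Pold4, where 21.2% of all genes tested fell. The median change of the 54 was 0.35, against 0.01 over all genes, and the middle 50% ran from 0.18 to 0.57. A fold change of at least 1.5 was fitted for 13 of the 54, all called higher apart from Dbf4, where 9.54% of all genes tested reached that size. The 3 eIF3m libraries lay above the 3 controls for 33 genes and below them for 2, against 23.3% and 25.3% of all genes. Summed over the 54, the level was 1561, 1544 and 1522 CPM in the controls and 1870, 1911 and 1964 CPM in the eIF3m libraries, so the groups did not overlap. eIF3m replicate 1, the library with the erythroid signal, had the lowest of the 3 eIF3m sums. Without it 33 of the 54 genes rose, beside 1936 of all 12925 genes tested. What part the erythroid signal had in the rise was not tested. In bulk RNA a larger share of cycling cells, S phase included, cannot be told apart from more of these transcripts per cell.

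**Figure D1:**
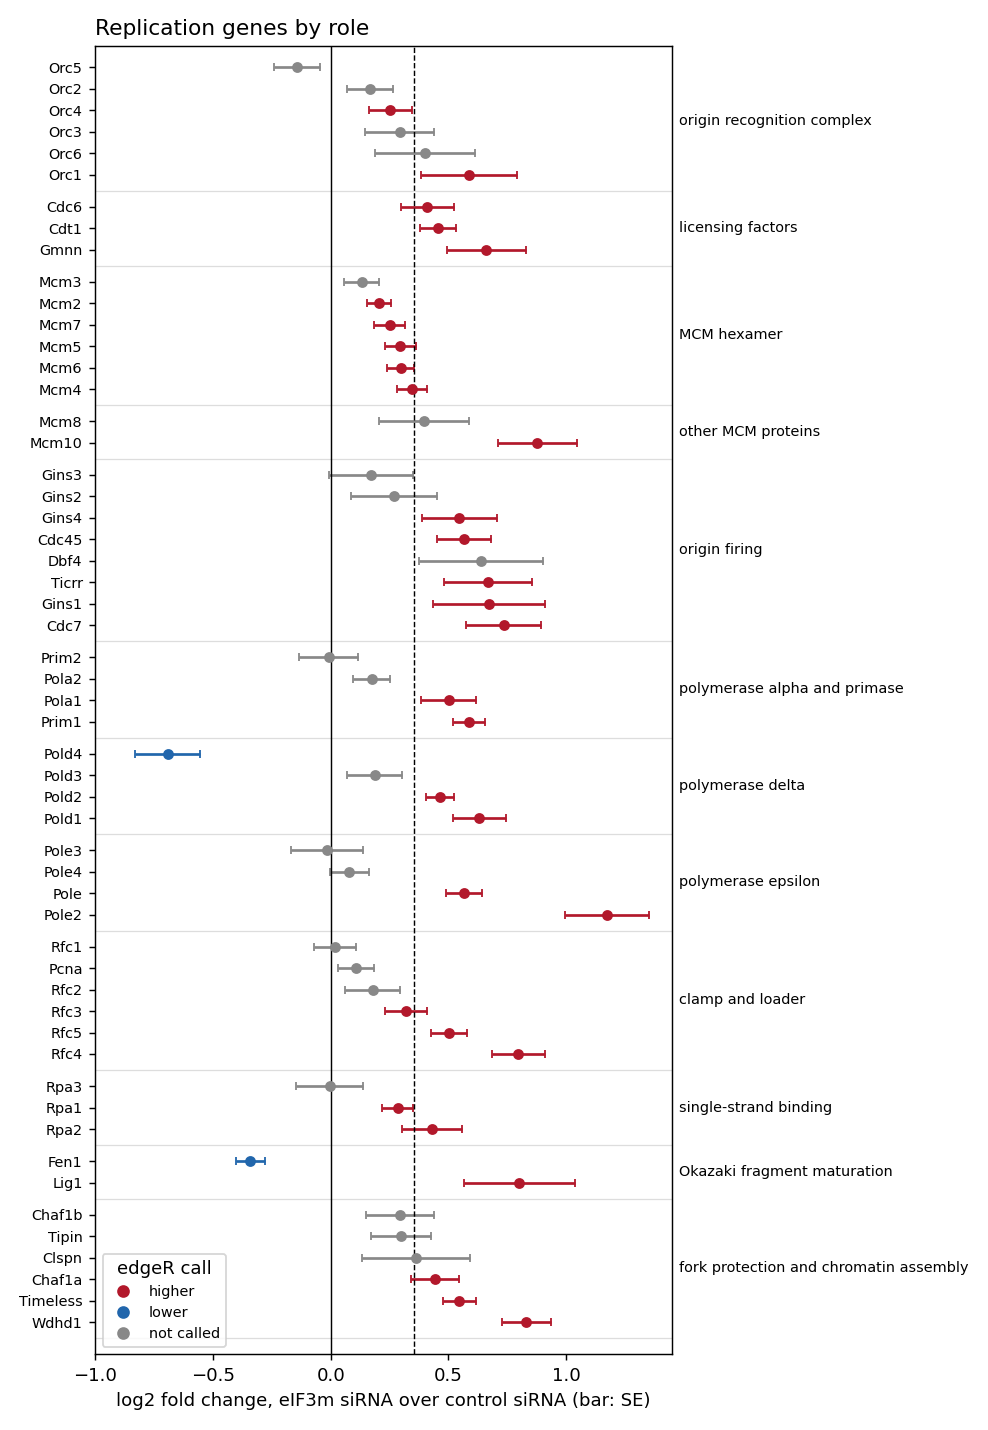
Log2 fold change (horizontal axis) of each of the 54 replication genes, grouped by role, with its standard error as a bar; red genes rose, blue genes fell and grey genes did not pass edgeR's test. The dashed line is the median of 0.35, and Fen1 and Pold4 are the genes called lower.

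The counts behind single genes were small in the shallowest library. No replication gene had 3 counts or fewer in any library, but in eIF3m replicate 2 there were 6 below 20 counts, and the lowest were Gins3 and Orc1 with 15. The median coefficient of variation of the 54 genes was 6.85% in controls and 9.40% in eIF3m libraries, close to the 6.91% and 8.85% of all genes tested. With every library thinned to the total of eIF3m replicate 2, 17 genes rose and 1 fell: 16 of the 31 risen genes, with Mcm8 added, and Pold4. The thinning was a single random draw, and other draws, which were not made, could call other genes.

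**Figure D2:**
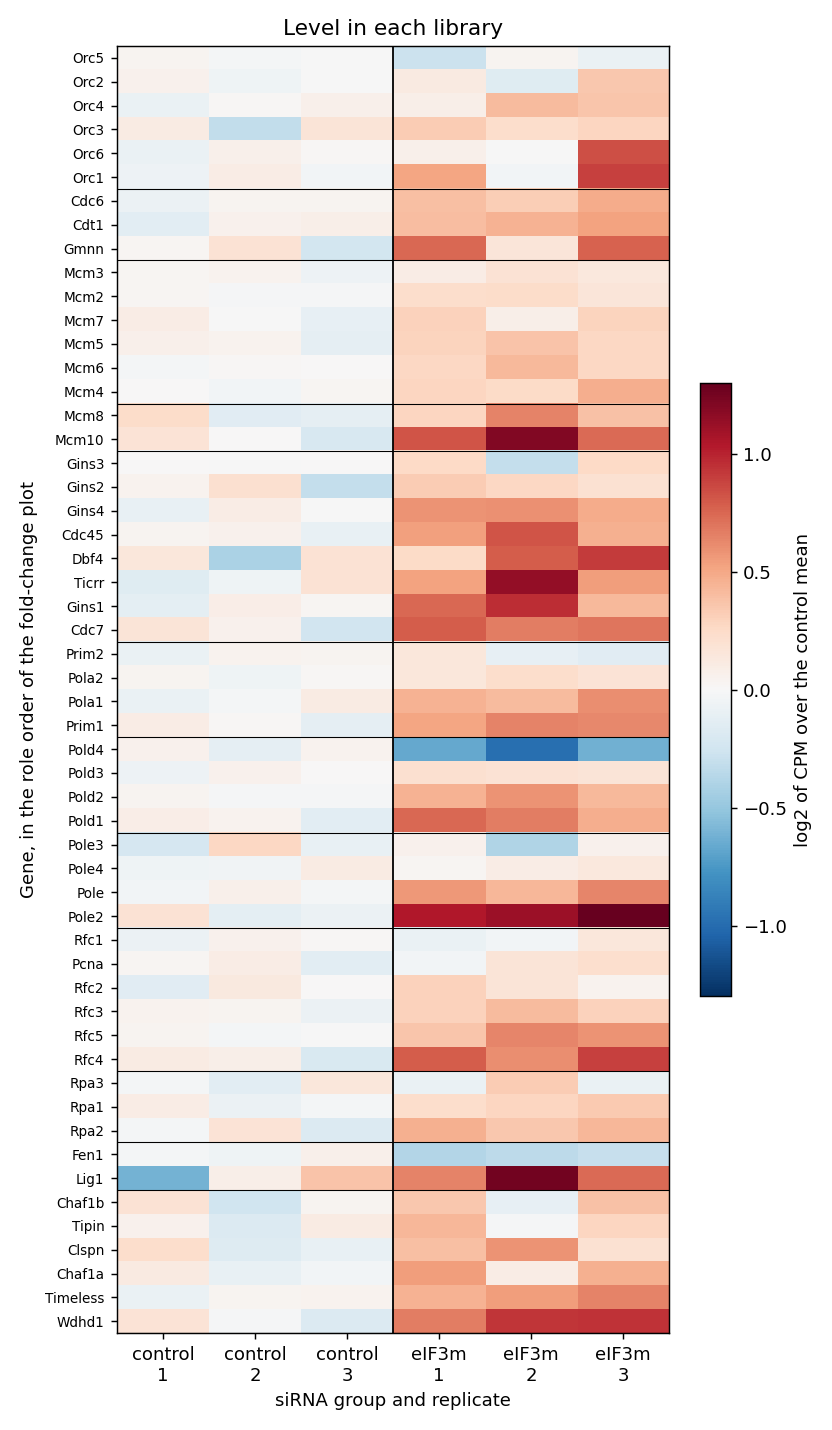
Level of each replication gene in each library, as log2 of its CPM over the control mean (colour scale), with libraries on the horizontal axis and genes in the role order of the fold-change plot. Red cells fill most of the 3 eIF3m columns, and the Pold4 and Fen1 rows are blue in all 3.

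In the roles that follow, counts of risen genes stand beside the 17.4% of all genes tested that rose. Statements of no overlap stand beside 23.3% of all genes above the controls and 25.3% below. At the origin itself the changes were mixed. Of the 6 ORC subunits, Orc1, the subunit that comes and goes with the cell cycle, rose (0.59 ± 0.20, adjusted p = 0.0330), as did Orc4 (0.25 ± 0.09, adjusted p = 0.0371). Orc1 stood at 6.52, 7.29 and 6.65 CPM in controls and at 9.75, 6.64 and 12.6 CPM in eIF3m libraries. eIF3m replicate 2, where it rests on 15 counts, lay among the controls. Neither call was firm: Orc1 did not pass without control replicate 1, 2 or 3 (0.55, 0.63 and 0.56) or eIF3m replicate 3 (0.37), and Orc4 did not pass without control replicate 1, 2 or 3 (0.21, 0.26 and 0.29) or eIF3m replicate 2 or 3 (0.22 and 0.18). Both also missed the threshold with DESeq2 and with thinned libraries, Orc1 with a replicate block (0.56, adjusted p = 0.0506 by edgeR) and Orc4 with limma-voom. Orc2, Orc3, Orc5 and Orc6 ranged from -0.14 to 0.40 and did not pass. The level of Orc6 was 8.79, 8.41 and 15.03 CPM in eIF3m libraries against 7.94, 8.83 and 8.502 CPM in controls. It was called higher without eIF3m replicate 1 (0.62, adjusted p = 0.0240 by edgeR) and lay at 0.04 without eIF3m replicate 3, the high one.

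All 3 licensing factors rose. Cdt1, which brings MCM to the origin, stood at 35.6, 40.7 and 41.4 CPM in controls and 51.9, 53.6 and 56.4 CPM in eIF3m libraries (0.46 ± 0.08, adjusted p = 2.20e-04). Every eIF3m library lay above every control. Gmnn, the inhibitor of Cdt1, rose too (0.66 ± 0.17), but with overlap: 10.1, 11.3 and 8.38 CPM against 16.6, 11.1 and 16.8 CPM, eIF3m replicate 2 being the low one at 25 counts. Relative to its control mean, the ratio of Gmnn to Cdt1 was 0.797 to 1.11 in controls and 0.813 to 1.26 in eIF3m libraries, so the inhibitor and its target kept overlapping ratios. Cdc6, the ATPase that works with ORC, rose by 0.41 ± 0.11, a call missed without eIF3m replicate 3 (0.37, adjusted p = 0.0510 by edgeR) and with thinned libraries, as was that of Gmnn with thinned libraries.

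Changes in the helicase ring were small. Of its 6 subunits 5 rose, by 0.21 to 0.35, and Mcm3 was at 0.13 ± 0.07 (adjusted p = 0.183). Mcm4 stood at 84.0, 81.8 and 85.1 CPM in controls and at 101, 99.2 and 116 CPM in eIF3m libraries (0.35 ± 0.06, adjusted p = 3.94e-04). Mcm6 went from 64.5, 66.3 and 65.7 CPM to 78.7, 87.7 and 79.0 CPM (0.30 ± 0.06, adjusted p = 6.23e-04). For both genes the lowest eIF3m library was above the highest control. Mcm2, Mcm5 and Mcm7 rose by 0.21 ± 0.05, 0.30 ± 0.07 and 0.25 ± 0.07, and eIF3m replicate 2 (91.6 CPM) lay among the controls (81.2 to 93.2 CPM) for Mcm7 alone of the 6. Summed over the ring, the level was 431 to 453 CPM in controls and 527 to 536 CPM in eIF3m libraries. The calls of Mcm2, Mcm5 and Mcm7 were lost with thinned libraries. Mcm10, which is no part of the ring and helps to activate it, rose more: it stood at 9.36, 8.32 and 7.15 CPM in controls and at 14.6, 19.0 and 13.8 CPM in eIF3m libraries (0.88 ± 0.17, adjusted p = 7.07e-04), with no overlap. Mcm8, a helicase of recombination, was at 0.40 ± 0.19 (adjusted p = 0.115), but at 0.74 with thinned libraries, where it was called higher (adjusted p = 0.0488 by edgeR).

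Genes that fire licensed origins had a median change of 0.60, and 5 of 8 rose. Cdc45, the helicase cofactor, stood at 18.0, 18.2 and 16.4 CPM in controls and at 25.3, 31.0 and 24.2 CPM in eIF3m libraries (0.57 ± 0.11, adjusted p = 0.00112). Cdc7, the kinase, went from 9.36, 8.70 and 7.02 CPM to 14.4, 13.3 and 13.6 CPM (0.74 ± 0.16, adjusted p = 0.00187). Ticrr, also called treslin, which helps Cdc45 to load, went from 7.38, 7.93 and 9.36 CPM to 11.9, 18.2 and 12.03 CPM (0.67 ± 0.19, adjusted p = 0.0101). The groups did not overlap for any of these 3 genes, although none passed with thinned libraries. Dbf4, the activating partner of Cdc7, was fitted at 0.64 ± 0.26 and did not pass (adjusted p = 0.0690); its highest count in any library was 64. Dbf4 was called higher without eIF3m replicate 1 (0.88, adjusted p = 0.0177 by edgeR), and also with the stricter filter, robust dispersion, upper-quartile scaling or no scaling factors. Among the GINS subunits, Gins4 rose from 7.38, 8.45 and 7.89 CPM to 11.9, 11.95 and 11.1 CPM (0.55 ± 0.16, adjusted p = 0.0133), and Gins1 rose by 0.67 ± 0.24 (adjusted p = 0.0358). Gins2 and Gins3 were at 0.27 ± 0.18 and 0.17 ± 0.18 and did not pass, so the 4 partners of 1 complex did not share a call; whether they differ from each other was not tested. Gins4 did not pass without control replicate 1 (0.50, adjusted p = 0.0519 by edgeR) or with DESeq2. Gins1 did not pass without control replicate 1, 2 or 3 (0.62, 0.72 and 0.69) or eIF3m replicate 1 or 2 (0.61 and 0.60), with DESeq2, with no filter or with thinned libraries.

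The 3 replicative polymerases each mixed risen subunits with ones that did not pass. The catalytic subunit of each rose: Pola1 by 0.50 ± 0.12, Pold1 by 0.63 ± 0.11 and Pole by 0.56 ± 0.08. In polymerase alpha and its primase, Prim1, which makes the RNA primer, stood at 54.9, 51.6 and 47.1 CPM in controls and at 72.9, 80.1 and 79.1 CPM in eIF3m libraries (0.59 ± 0.07, adjusted p = 6.00e-06). That was the lowest p among the 54 genes. Its regulatory partner Prim2 was at -0.0089 ± 0.13 (adjusted p = 0.976), with 16.2 to 17.8 CPM in controls and 15.5 to 19.0 CPM in eIF3m libraries. Pola2 was at 0.17 ± 0.08 and did not pass (adjusted p = 0.0910).

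In polymerase epsilon, Pole stood at 33.2, 35.7 and 33.5 CPM in controls and at 50.3, 46.0 and 52.9 CPM in eIF3m libraries (adjusted p = 2.82e-05). Pole2, the second-largest subunit, had the highest fold change of the 54 genes: it went from 6.52, 5.25 and 5.42 CPM to 11.8, 12.4 and 14.4 CPM, 2.26-fold (1.17 ± 0.18, adjusted p = 8.67e-05). Every eIF3m library was above every control for both. The small histone-fold subunits Pole3 and Pole4 were at -0.02 ± 0.15 and 0.08 ± 0.08 and did not pass. Within a library, and relative to the control mean, the ratio of Pole2 to Pole was 0.872 to 1.17 in controls and 1.39 to 1.62 in eIF3m libraries, while the ratio of Pole3 to Pole was 0.885 to 1.16 and then 0.569 to 0.707. Both ratios separated the groups, but they were picked after the values were seen and restate the changes above. Of the other polymerase ratios taken, Prim1 to Pola1 and Pold2 to Pold1 overlapped between the groups. Those of Pola2 and Prim2 to Pola1, Pold3 to Pold1 and Pole4 to Pole did not. These ratios too were picked after the values were seen. How often ratios of other gene pairs separate the groups was not counted. For levels of single genes, 23.3% of all genes tested lay wholly above the controls and 25.3% wholly below.

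Polymerase delta held the widest spread within a complex. Pold2, the accessory subunit that bridges to the others, stood at 53.6, 51.8 and 51.6 CPM in controls and at 71.6, 78.4 and 70.1 CPM in eIF3m libraries (0.47 ± 0.06, adjusted p = 1.75e-05). Pold3 was at 0.19 ± 0.12 and did not pass (adjusted p = 0.230). Pold4, the smallest subunit, fell: it stood at 18.2, 16.1 and 18.0 CPM in controls and at 10.99, 8.85 and 11.3 CPM in eIF3m libraries (-0.69 ± 0.14, adjusted p = 9.15e-04). All 3 eIF3m libraries were below all 3 controls. The ratio of Pold4 to Pold1, also picked after the values were seen, was 0.891 to 1.13 in controls and 0.319 to 0.465 in eIF3m libraries. In RefSeq's GRCr8 annotation Pold4 overlaps Rad9a, a checkpoint clamp gene, which moved the other way, from 53.0, 58.0 and 59.3 CPM to 72.3, 83.7 and 73.7 CPM (0.40 ± 0.07, adjusted p = 1.97e-04). The strand setting of the counting is not stated in these sources, and how reads of the shared stretch were assigned was not tested.

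**Figure D3:**
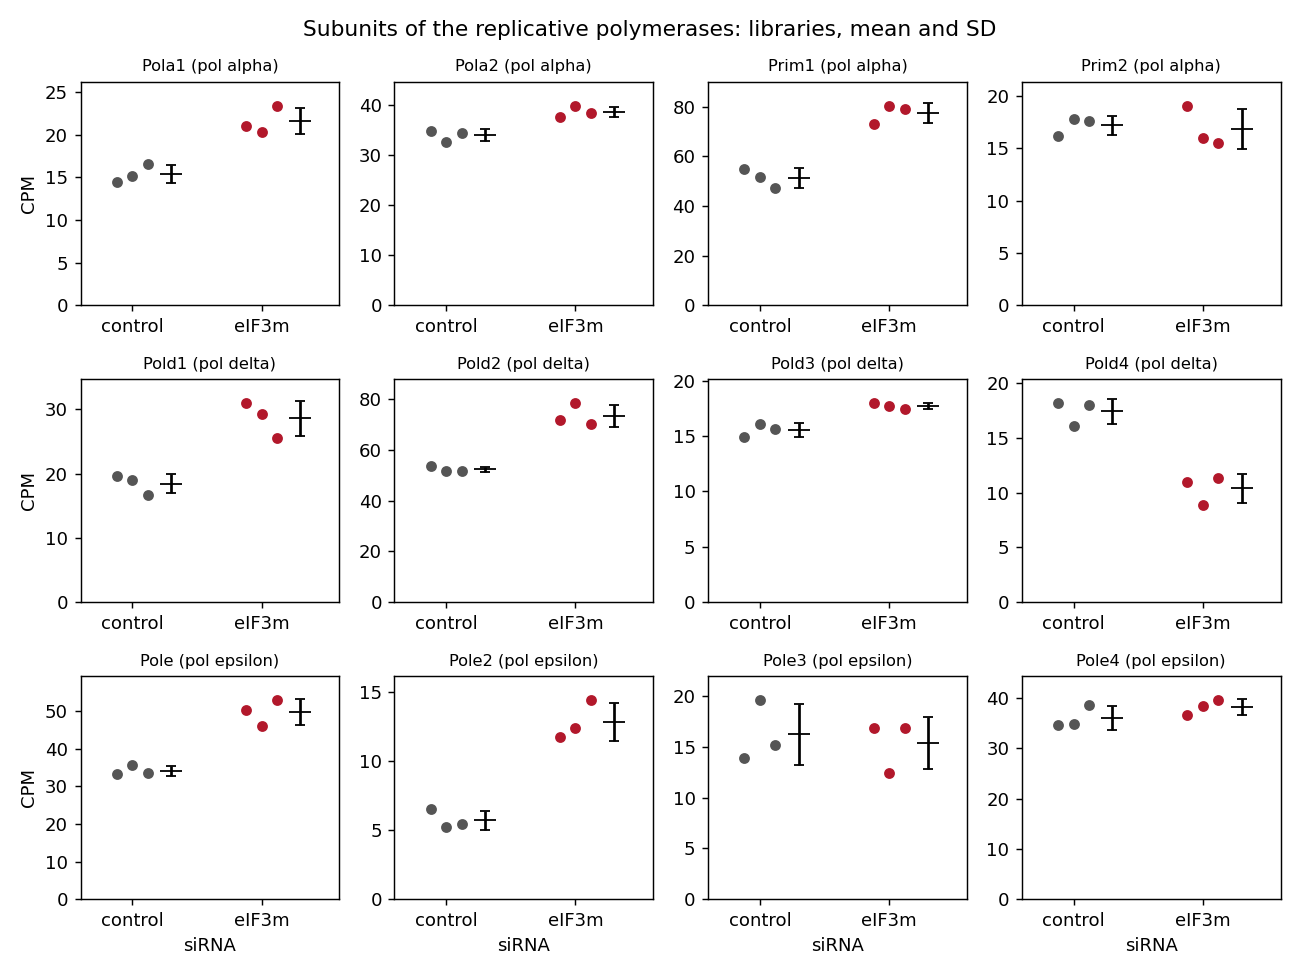
CPM (vertical axes, from 0) of the 12 subunits of polymerases alpha, delta and epsilon in each control (grey) and eIF3m (red) library, with mean and SD as bars. Pold4 is lower in every eIF3m library, Pole2 goes from 5.73 to 12.9 CPM on average, and Prim2 and Pole3 overlap between the groups.

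The sliding clamp itself did not pass. Pcna stood at 69.6, 72.8 and 62.1 CPM in controls and at 66.4, 76.6 and 79.5 CPM in eIF3m libraries (0.11 ± 0.08, adjusted p = 0.293); it is singled out here after its values were seen. Without eIF3m replicate 1, whose level was the lowest of the 3, Pcna was called higher by edgeR (0.21, adjusted p = 0.0460). Of the 5 subunits of replication factor C, which loads it, 3 rose. Rfc4 went from 18.9, 18.4 and 15.3 CPM to 30.2, 26.6 and 32.5 CPM (0.80 ± 0.11, adjusted p = 4.60e-05). Rfc5 went from 41.4, 39.9 and 40.3 CPM to 52.2, 62.9 and 60.6 CPM (0.50 ± 0.08, adjusted p = 9.82e-05), and Rfc3 from 26.5, 26.2 and 24.3 CPM to 31.6, 34.1 and 31.5 CPM (0.32 ± 0.09, adjusted p = 0.0110). The groups were apart for all 3. Rfc2 and the large subunit Rfc1, which is the one particular to the Pcna loader, were at 0.18 ± 0.12 and 0.02 ± 0.09 and did not pass. Rfc3 missed the threshold without control replicate 3 (0.28, adjusted p = 0.0578 by edgeR), with DESeq2 and with thinned libraries, and Rfc5 with thinned libraries.

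Of the 3 subunits of the single-strand binding protein RPA, the large and middle ones rose. Rpa1 stood at 56.0, 49.6 and 51.5 CPM in controls and at 61.3, 63.8 and 66.5 CPM in eIF3m libraries (0.29 ± 0.07, adjusted p = 0.00294). Rpa2 went from 14.3, 16.5 and 12.9 CPM to 20.1, 18.6 and 19.7 CPM (0.43 ± 0.13, adjusted p = 0.0141). The groups did not overlap for either, but Rpa2 missed the threshold without control replicate 3 (0.34, adjusted p = 0.0745 by edgeR) and with DESeq2, and neither passed with thinned libraries. Rpa3, the small subunit, had a fold change of 0.997 (adjusted p = 0.987).

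The 2 genes that finish Okazaki fragments moved in opposite directions. Fen1, the nuclease that trims the flap of the fragment, stood at 65.2, 63.9 and 69.5 CPM in controls and at 50.8, 52.2 and 53.9 CPM in eIF3m libraries (-0.34 ± 0.06, adjusted p = 4.00e-04). Lig1, the ligase that seals the nick, went from 4.11, 6.65 and 8.13 CPM to 9.85, 15.1 and 10.5 CPM (0.80 ± 0.24, adjusted p = 0.0144). Neither overlapped between groups. The controls of Lig1 were widely spread: its change was 0.58 and not called without control replicate 1 (adjusted p = 0.0647 by edgeR), and 1.47 with thinned libraries. Fen1 was at -0.23 and not called with thinned libraries (adjusted p = 0.0964 by edgeR), and at -0.20 and called with no scaling factors. In GRCr8 Fen1 overlaps Tmem258, a gene of N-glycosylation, which fell as well, from 54.9, 47.5 and 54.8 CPM to 39.4, 36.3 and 36.4 CPM (-0.47 ± 0.08, adjusted p = 2.19e-04). How reads of the shared stretch were assigned was not tested. In all, 9 of the 54 genes overlap a protein-coding gene in that annotation. They include the 2 that fell and 4 that rose (Lig1, Orc4, Pole2 and Ticrr), and the partners of the last 3 among these (Acvr2a and Mbd5, Klhdc1 and Kif7) did not pass the test.

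Around the fork, Wdhd1, which tethers polymerase alpha to the helicase, stood at 31.2, 27.4 and 24.4 CPM in controls and at 43.9, 52.7 and 53.0 CPM in eIF3m libraries (0.83 ± 0.10, adjusted p = 1.27e-05). Timeless, of the fork protection complex, went from 42.8, 46.7 and 47.2 CPM to 62.5, 66.4 and 71.4 CPM (0.55 ± 0.07, adjusted p = 1.71e-05). The groups did not overlap for either gene. Its partners Tipin and Clspn were at 0.30 ± 0.13 and 0.36 ± 0.23 and did not pass (adjusted p = 0.0789 and 0.234). Chaf1a, the large subunit of the chromatin assembly factor that places histones behind the fork, rose from 32.5, 27.9 and 29.2 CPM to 43.6, 31.9 and 41.3 CPM (0.44 ± 0.10, adjusted p = 0.00290), with eIF3m replicate 2 below control replicate 1. Chaf1b, its partner, was at 0.29 ± 0.14 (adjusted p = 0.120). Without eIF3m replicate 2 both Tipin (0.36) and Chaf1b (0.37) were called higher by edgeR, with adjusted p = 0.0323 and 0.0451.

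Other genes of DNA replication were read from lists made by role. Over all genes tested 17.4% rose and 21.2% fell, and the counts of each list stand beside these shares. Of 28 tested replisome partners that are not among the 54, 16 rose (57.1%) and 0 fell, with a median of 0.31. Top2a, topoisomerase II alpha, rose by 0.82 ± 0.08, Dscc1, a subunit of an alternative clamp loader, by 0.91 ± 0.13 and Nasp, a histone chaperone, by 0.35 ± 0.06. Of 11 genes of deoxynucleotide supply 6 rose and 0 fell (median 0.46), with Dctpp1, a dCTP pyrophosphatase, at 1.10 ± 0.17, Tk1, thymidine kinase, at 0.79 ± 0.10 and Rrm2, a subunit of ribonucleotide reductase, at 0.60 ± 0.07. In the list of the ATR checkpoint, which guards stalled forks, 4 of 9 rose and 0 fell (median 0.33): Rad9a as above, the kinase Atr by 0.58 ± 0.11, the kinase Wee1 by 0.34 ± 0.06 and Hus1, a checkpoint clamp subunit. The calls of Atr and Wee1 were lost with thinned libraries.

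The list of licensing control and S-phase ligases was split, with 8 of 14 risen and 2 fallen (median 0.31). Here too the shares over all genes tested were 17.4% risen and 21.2% fallen. Ccna2, cyclin A2, rose from 25.05 ± 3.18 to 51.0 ± 5.67 CPM (SD, n = 3 per group; edgeR adjusted p = 1.80e-06). Dtl, the substrate receptor of the ligase that destroys Cdt1 on DNA, rose by 0.60 ± 0.07, while Ddb1, the adaptor of the same ligase, fell from 1103 ± 19.1 to 820 ± 31.5 CPM (-0.43 ± 0.03). Kmt5a, a histone methyltransferase that this ligase also targets, fell by 0.37 on the log2 scale. Of 13 E2F and pocket protein genes 5 rose, 1 fell and 7 did not pass (median 0.28). The risen genes were E2f2 (1.33 ± 0.25), E2f7 (1.04 ± 0.19), E2f8 (0.75 ± 0.17), E2f5 (0.28 ± 0.10) and the E2F partner Tfdp2 (0.99 ± 0.15). E2f1 (0.13 ± 0.11) and E2f3 (0.32 ± 0.16) were among those that did not pass. Rb1, the retinoblastoma protein that restrains E2F, was called lower (-0.35 ± 0.12, edgeR adjusted p = 0.0356). The call of Rb1 was lost without control replicate 1 or 3 (-0.34 and -0.33) or eIF3m replicate 1, 2 or 3 (-0.39, -0.32 and -0.34), and with DESeq2, no filter, thinned libraries, upper-quartile scaling or no scaling factors.

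Of 14 tested polymerases and helpers that do not build the replication fork, 3 rose and 1 fell, a share of 21.4% risen beside the 17.4% of all genes, with a median of 0.16. Polm, a polymerase of end joining, fell from 56.2 ± 1.72 to 27.5 ± 0.709 CPM (-1.04 ± 0.07). Polq, of theta-mediated end joining, rose by 1.06 ± 0.18. Rev3l, the catalytic subunit of polymerase zeta, rose by 0.33 ± 0.11, a call lost without control replicate 2 or 3 (0.25 and 0.29) or eIF3m replicate 1 or 3 (0.33 and 0.31), with DESeq2, thinned libraries and a replicate block (0.30, edgeR adjusted p = 0.0526). Rad18, the ligase that calls in translesion polymerases, was the third. In mitochondrial DNA replication 1 of 9 rose and 0 fell, with a median of -0.02. Polg and Polg2, which did not pass, are counted both in this list and in that of the other polymerases. That gene, Polrmt, the mitochondrial RNA polymerase (0.20 ± 0.07), did not pass without control replicate 1 or 3 (0.15 and 0.21) or any of eIF3m replicates 1, 2 and 3 (0.20, 0.20 and 0.22), nor with DESeq2, no filter, thinned libraries or a replicate block (0.22, edgeR adjusted p = 0.0501). For comparison, all 18 mitosis markers rose, with a median of 0.63 and a range of 0.47 to 1.03, among them Mki67 (0.81 ± 0.05), Cdk1 (0.60 ± 0.05) and Bub1b (0.70 ± 0.08). No test of one list against another was made.

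**Figure D4:**
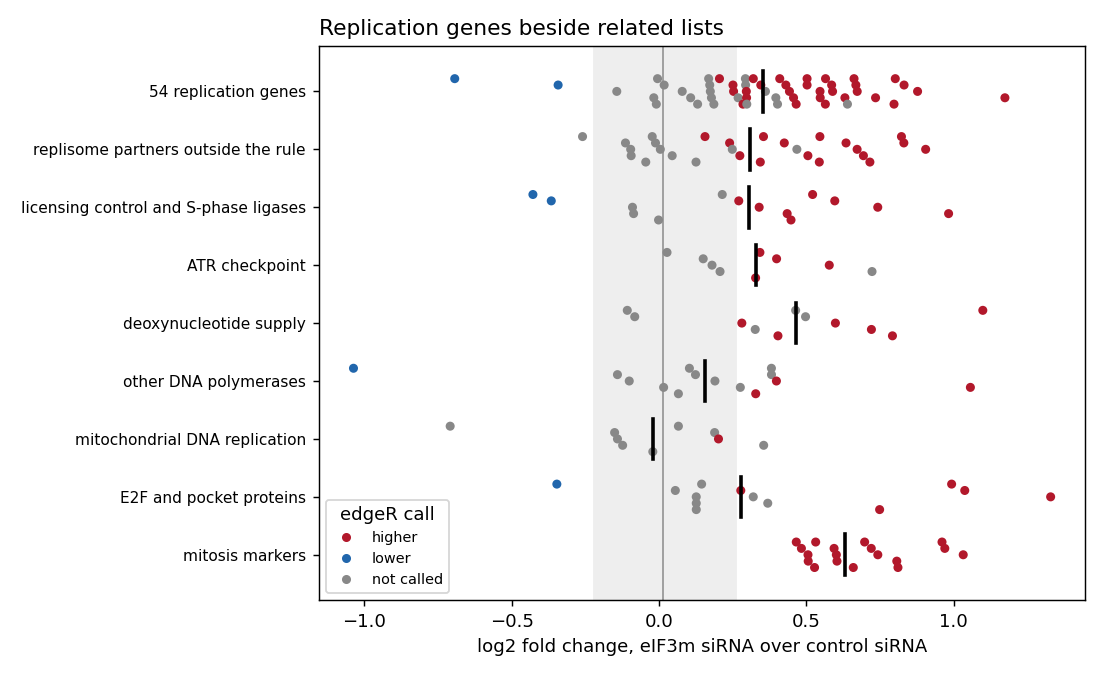
Log2 fold changes of the 54 replication genes and of the genes of 8 related lists (1 point per tested gene; red rose, blue fell, grey did not pass; black bar, median). The grey band holds the middle 50% of all genes tested. All 18 mitosis markers and 31 of the 54 replication genes are red, against 1 of 9 mitochondrial replication genes. Polg and Polg2 appear both there and among the other polymerases.

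Markers of other cells moved between the groups beside these changes. Their counts stand beside 17.4% of all genes tested that rose and 21.2% that fell. Of 7 tested skeletal myoblast markers (13 in the files) 0 rose and 6 fell, and their sum went from 120 to 128 CPM in controls to 66.9 to 72.6 CPM. Of 7 tested smooth muscle and pericyte markers (8 in the files) 2 rose and 5 fell, with sums of 5669 to 5808 and 3704 to 3897 CPM. Of 7 tested fibroblast markers (9 in the files) 4 rose and 2 fell, with sums of 13853 to 14404 and 14777 to 15257 CPM. Most of that sum was the collagen gene Col1a1, at 11944 to 12113 and 13062 to 13373 CPM. The risen Dcn, at 55.5, 2.21 and 1.80 CPM in eIF3m libraries, and Lum, at 10.3, 3.98 and 2.89 CPM, were highest in eIF3m replicate 1. The part of these shifts in the replication result was not tested.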

How the data were processed

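Messenger RNA libraries of 6 rat samples, 3 per group, were deposited as read counts per gene symbol, 1 file per sample. The counts are whole numbers that the authors did not normalize, per the file headers and values. The submitters' processing notes name Trimmomatic 0.40, HISAT2 2.2.1, featureCounts, limma, DESeq2 and build rn6, with no role or order. For annotation, strand setting and multiply mapped reads, the choice made is not given in the sources used here. The labels' protocols also mention dexamethasone, isobutylmethylxanthine and insulin, without saying which samples received them.

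In each file 27 of 31038 symbols had been turned into dates and were dropped (0.203 to 0.216% of counts). Genes passing filterByExpr (minimum count 10, minimum total 15; 12724 genes) were fitted with edgeR 4.0.16 in R 4.3.3: TMM scaling, 2 groups, quasi-likelihood test, Benjamini-Hochberg adjustment over all of them. The SE is the absolute log2 fold change over the square root of F. Alternatives were DESeq2 1.42.0, limma-voom (limma 3.58.1), other scalings, filters and dispersions, libraries thinned to 2151671 counts, a replicate block, and leaving out each library. The thinned counts came from a single random draw.

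The 54 genes and the other lists were chosen with earlier results of these data known. Per-library values are given for up to 4 called genes with the lowest p per role. They are also given for every called gene of a direction that 5 or fewer genes took. Others are given as fold changes or ranges. Of further lists, up to 3 called genes and those of a direction that at most 2 took are given, with some others named beside them. Ratios of subunits were chosen after values were seen. Levels were not compared between genes, since no transcript lengths were used. Overlapping genes and promoters come from RefSeq (GRCr8), whose gene table held all 54 symbols; no gene coordinates of that build are set beside the rn6 counts.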

Additional observations from a re-analysis of the deposited data

How the results depend on the processing

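Over 16 alternatives the number of replication genes that rose was 25 to 44 apart from thinned libraries, where it was 17 with 1 lower (Pold4); thinning leaves less depth in 5 of the 6 libraries. Leaving out 1 library at a time gave 26 to 33 higher and 2 lower. Of the 31 higher genes 14 stayed higher, and of the 2 lower 1 stayed lower, in all 16. Among all genes, 4163 were higher and 1680 lower with no scaling factors and 1348 were higher in thinned libraries; leaving out 1 library gave 1692 to 2113 higher and 2336 to 2641 lower. The higher share of all calls was 45.1%, against 58.6% with upper-quartile scaling and 71.2% with no scaling factors, which moved the median of all genes from 0.01 to 0.16 and that of the 54 from 0.35 to 0.50. Samples with equal replicate numbers had deviations with correlations of 0.0271, -0.0122 and 0.0131, and all sample pairs lay between -0.0456 and 0.0308. Count noise also lowers such correlations, so they cannot tell whether the samples were paired. With a replicate block 30 of the 54 rose and 2 fell. Calls were gained by Dbf4, Mcm3, Pola2 and Tipin with upper-quartile scaling, by these and Chaf1b, Mcm8, Orc2, Orc3, Orc6, Pcna, Pold3, Pole4 and Rfc2 with no scaling factors, by Dbf4 with the stricter filter or robust dispersion, by Tipin with limma-voom, by Mcm8 in thinned libraries, by Dbf4, Orc6 and Pcna without eIF3m replicate 1 and by Chaf1b and Tipin without eIF3m replicate 2. Signs turned for 6 genes, none of which had passed the test: Orc3 (thinned -0.0016), Orc5 (no scaling factors 0.0031), Pole3 (limma-voom 0.019, no scaling factors 0.13, replicate block 0.020, upper-quartile 0.050, leaving out a library -0.12 to 0.13), Prim2 (limma-voom 0.00086, no scaling factors 0.14, stricter filter 0.0043, thinned 0.039, upper-quartile 0.059, leaving out a library -0.13 to 0.073), Rfc1 (thinned -0.060, leaving out a library -0.073 to 0.0999) and Rpa3 (DESeq2 0.013, no scaling factors 0.14, stricter filter 0.0048, upper-quartile 0.063, leaving out a library -0.087 to 0.081). The cause was not tested. In eIF3m replicate 2, 6 genes had under 20 counts.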
